A study of Homo sapiens with 18 samples.

Results

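The 10 genes followed here through knockdown of the kinase SYK in lung cancer cells were the 3 D-type cyclins CCND1, CCND2 and CCND3, the 3 CIP/KIP inhibitors CDKN1A, CDKN1B and CDKN1C, and the 4 INK4 inhibitors CDKN2A, CDKN2B, CDKN2C and CDKN2D. They were chosen by name, with earlier results of these data known, and all 10 were found among the 58302 genes of each of the 3 FPKM tables. FPKM is the number of fragments on a gene scaled to gene length and sequencing depth. RNA-seq had been run on 3 cell lines, the MET-amplified EBC-1 and the EGFR exon 19-deleted PC-9 and HCC827. Each line carried either a single lentiviral shRNA clone against SYK (shSYK), kept as a stable knockdown, or a negative control (nc). Every group was sequenced as 3 libraries, 18 in all, and the labels name no drug treatment. Since a single shRNA clone was used, an effect of losing SYK and an effect of that clone on other transcripts cannot be told apart.

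Progression from G1 into S phase is gated by D-type cyclins, which bind CDK4 and CDK6 and begin the phosphorylation of the retinoblastoma protein. INK4 proteins bind CDK4 and CDK6 directly and keep the cyclin out, whereas CIP/KIP proteins bind cyclin-CDK complexes and block CDK2 in particular. Cyclin D1 transcription follows mitogenic signalling through receptor kinases such as MET and EGFR, and CDKN2A is one of the genes most often lost or silenced in lung cancer. CDKN2A gives rise to p16 and, from another first exon and reading frame, to ARF, and a level per gene does not separate these.

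Between 7920099 and 15729103 reads lay on genes per library, and mitochondrially encoded genes held between 1.89% and 3.63% of them. In EBC-1 the mitochondrial share moved with the groups, at 2.23% to 2.51% in nc and 1.89% to 1.93% in shSYK, and its part in the EBC-1 results was not tested. All shSYK libraries had less SYK than the nc libraries of their line, with means of 14.2 against 7.43 FPKM in EBC-1 cells, 6.51 against 2.09 FPKM in PC-9 cells and 9.08 against 2.99 FPKM in HCC827. Its limma adjusted p was 0.000271, 0.00733 and 0.000197 in this order, and in PC-9 it was no longer under 0.05 without shSYK replicate 1, while its log2 fold change there was -1.29 with all libraries and -1.21 without nc replicate 1. All 5 epithelial markers (EPCAM, KRT8, KRT18, KRT19 and CDH1) were detected in every line. The library PC-9 nc replicate 1 stood apart from its group, its counts giving a chi-square of 38.7 and 14.3 per degree of freedom against the other PC-9 nc libraries, compared with 2.11 to 12.2 for all other pairs of replicates. PC-9 nc replicates 1 and 2 lay at opposite ends, with FPKM sums of 342200 and 274900, beside 301300 in nc replicate 3. Genes called changed in PC-9 numbered 253 with all libraries, 621 without nc replicate 1 and 503 without nc replicate 2. Log2 fold changes and list counts in PC-9 are given with and without nc replicate 1, which checks only 1 of these ends. To a lesser degree, EBC-1 nc replicate 2 stood apart at 10.6 and 12.2, beside 2.23 between nc replicates 1 and 3. EBC-1 shSYK replicate 3 did so at 9.28 and 8.35, beside 2.11 between shSYK replicates 1 and 2. Genes called changed in EBC-1 numbered 5562 with all libraries, 6309 without nc replicate 2 and 4334 without shSYK replicate 3. Nothing in the labels says that the replicates came from separate cultures, so p-values measure the spread between these libraries, which may be technical.

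Promoter sequences are shown for CDKN1A, CDKN1B and CDKN2B, the inhibitors called changed in HCC827 under every alternative. They hold the 250 bases before the RefSeq start in GRCh38.p14, 5′ to 3′ on the strand of the gene. Capitals mark GC boxes, the 6-base motif GGGCGG or its complement CCGCCC, which is the motif known for binding Sp1. Sp1 is the transcription factor that the study examined as a partner of SYK. CDKN1A lies on the + strand, at chr6:36678464-36678713 in this window, CDKN1B on the + strand at chr12:12717118-12717367 and CDKN2B on the - strand at chr9:22009306-22009555.
CDKN1A: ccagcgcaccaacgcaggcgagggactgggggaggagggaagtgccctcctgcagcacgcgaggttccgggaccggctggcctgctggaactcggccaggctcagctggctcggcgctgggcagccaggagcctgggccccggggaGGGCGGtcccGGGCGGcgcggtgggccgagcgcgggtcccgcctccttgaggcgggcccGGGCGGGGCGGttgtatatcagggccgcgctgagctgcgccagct
CDKN1B: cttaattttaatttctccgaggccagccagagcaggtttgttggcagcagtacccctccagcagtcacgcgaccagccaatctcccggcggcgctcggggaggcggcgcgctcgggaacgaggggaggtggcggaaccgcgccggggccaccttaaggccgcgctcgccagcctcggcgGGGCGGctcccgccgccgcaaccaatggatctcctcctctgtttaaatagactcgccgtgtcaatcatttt
CDKN2B: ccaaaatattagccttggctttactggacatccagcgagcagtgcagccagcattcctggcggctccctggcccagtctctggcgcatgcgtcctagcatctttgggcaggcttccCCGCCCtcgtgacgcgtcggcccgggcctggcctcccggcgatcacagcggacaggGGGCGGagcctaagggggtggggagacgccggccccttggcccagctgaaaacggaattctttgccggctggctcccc
The CDKN1A window holds 4 GC boxes, 2 of which share a base, the CDKN1B window holds 1, at 71 bases before the start, and the CDKN2B window holds 2, at 134 and 78 bases before it. In the RefSeq table, 7 of the 10 genes had an entry, with 12 starts in all, and 9 of these 12 windows held the motif. It was present in 42.6% of all 35116 promoter windows of this length, and 7.63% held 4 or more. The most GC boxes, 5 each, lay in 1 window of CCND3 and 1 of CDKN2C, genes called changed in no line with the main settings. CCND1, CCND2 and CDKN1C had no entry. These matches describe letters in the windows, and binding was not measured here.

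Before knockdown, the 3 lines differed in which genes carried each family. Levels across lines are described by the range of the 3 nc libraries, with no test, since each line has a table of its own. CCND1 (chr11:69641087-69654474, hg38) was the main D-type cyclin transcript everywhere, with 45.2 to 53.5 FPKM in EBC-1 cells, 64.3 to 71.5 in PC-9 cells and 95.9 to 113 in HCC827 cells, so the 3 ranges did not overlap. In EBC-1 nc cells its mean was higher than that of 92.2% of the genes tested, in PC-9 higher than that of 94.2%, and in HCC827 higher than that of 96.3%. CCND3 (chr6:41934933-42050357), which can stand in for cyclin D1, had a mean of 17.2 ± 2.57 FPKM (SD, n = 3) in EBC-1 cells, 14.1 ± 3.73 in PC-9 cells and 11.0 ± 1.30 in HCC827 cells, and the ranges of neighbours in this order overlapped. By FPKM, CCND1 made up 73.3% to 75.7% of the D-type cyclin total in EBC-1 cells, 79.9% to 85.9% in PC-9 cells and 88.6% to 92.1% in HCC827 cells.

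CCND2 was the only one of the 10 genes at or below a floor of 3 reads per library in the nc cells of any line. No read was found in any of the 6 PC-9 libraries, and a single read in 1 of the 6 HCC827 libraries, in shSYK. A count of 0 allows up to 3 reads, or 0.0361 to 0.0507 FPKM in the PC-9 nc libraries and 0.0357 to 0.0580 FPKM in the HCC827 nc libraries. These limits cover counting error only. In EBC-1 nc cells 28, 17 and 16 reads gave 0.284, 0.188 and 0.190 FPKM. Their mean of 0.220 FPKM was 5.21 times the mean floor of the PC-9 nc libraries and 4.99 times that of the HCC827 nc libraries. Of the 12 protein-coding genes within 500 kb of CCND2 (chr12:4273772-4305350, hg38), 5 in PC-9 and 6 in HCC827 were above the floor in every nc library, against 7 in EBC-1. TIGAR, the nearest of them downstream and a p53 target that lowers glycolysis, had a median of 1.80 FPKM in PC-9 nc and 9.39 FPKM in HCC827 nc libraries. All neighbours above the floor in PC-9 and HCC827 lay downstream of CCND2. The only neighbour upstream within the window, PARP11, a mono-ADP-ribosyltransferase, had no read in the PC-9 nc libraries and at most 0.0137 FPKM in the HCC827 nc libraries, against 0.866 to 1.05 FPKM in EBC-1. Whether the DNA of this interval is intact was not measured.

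CDKN2A showed the widest spread across lines. Its nc libraries held 5.63 to 8.54 FPKM in EBC-1 cells, 62.9 to 104.7 in PC-9 cells and 208 to 224 in HCC827 cells, so that the HCC827 mean was 29.1 times the EBC-1 mean. CDKN2A (chr9:21967753-21995301, hg38) and its neighbour CDKN2B (chr9:22002903-22009363), which lie in an interval often deleted in cancer, were thus both detected in all 3 lines, CDKN2B at 2.13 to 2.56 FPKM in EBC-1 cells, 4.92 to 6.06 in PC-9 cells and 4.53 to 4.88 in HCC827 cells. Accordingly CDKN2A made up 93.3% to 93.7% of the INK4 total in HCC827 and 80.6% to 84.2% in PC-9, but 19.4% to 22.4% in EBC-1. There CDKN2C (chr1:50960745-50974633), which encodes p18, held the largest share at 44.8% to 47.6%, with 13.0 to 17.5 FPKM against 2.77 to 3.75 in PC-9 and 4.34 to 5.52 in HCC827. CDKN2D (chr19:10566462-10569059), which encodes p19, had 8.11 to 9.98 FPKM in EBC-1 cells, 6.35 to 10.5 in PC-9 cells and 4.82 to 6.30 in HCC827 cells.

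CIP/KIP transcripts were led by CDKN1B (chr12:12715058-12722371), which encodes p27, in all 3 lines. It stood at 58.8 to 65.8 FPKM in EBC-1 cells, 29.3 to 36.3 in PC-9 cells and 22.3 to 23.5 in HCC827 cells, and CDKN1A (chr6:36676460-36687339), which encodes p21, the classical p53 target, at 23.1 to 24.6, 5.69 to 6.10 and 7.98 to 10.2 FPKM in the same order. CDKN1C (chr11:2883213-2885881), an imprinted gene that encodes p57, was the weakest of the family at 4.66 to 5.34 FPKM in EBC-1 cells, 1.53 to 2.71 in PC-9 cells and 1.28 to 2.15 in HCC827 cells. All 3 CIP/KIP genes were highest in EBC-1, and for CDKN1C the PC-9 and HCC827 ranges overlapped.

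**Figure D1:**
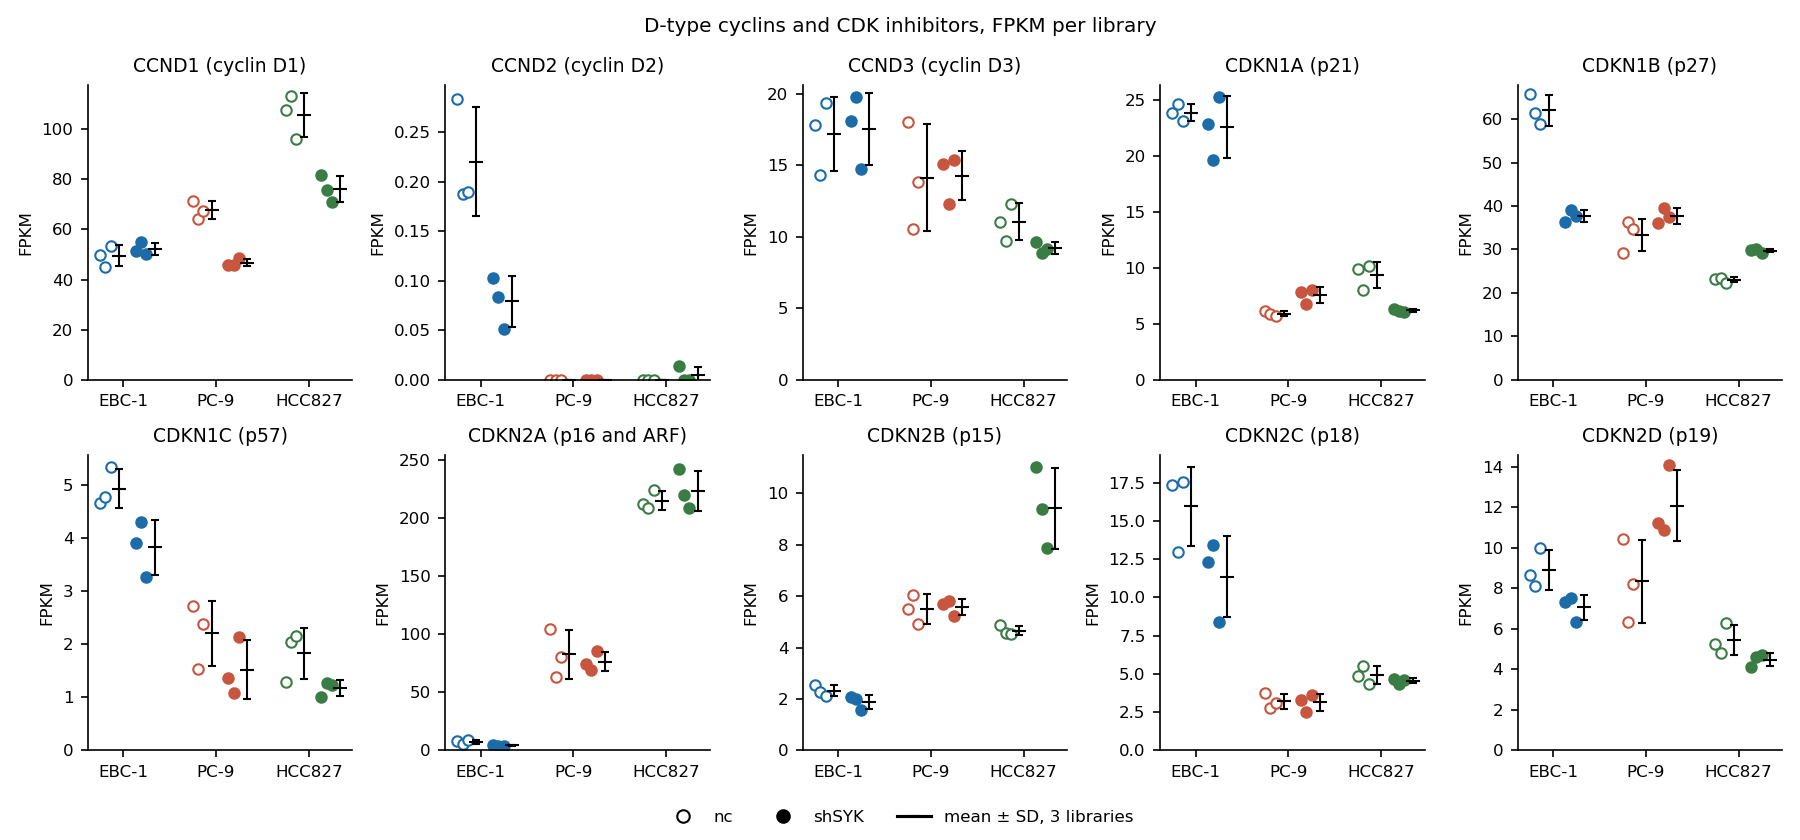
FPKM of the 10 genes in each library (points) of nc (open) and shSYK (filled) cells of the 3 lines, with the mean and SD of 3 libraries in black and each panel on its own axis from 0. CCND2 lies at 0 in PC-9, CDKN2A ranges from 4.09 FPKM in EBC-1 to 242 FPKM in HCC827, and CDKN1B is lower in shSYK than in nc cells in EBC-1 and higher in HCC827.

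Knockdown was compared with nc within each line with limma on log2(FPKM + 1), and genes with an adjusted p under 0.05 over all genes tested were called changed. On this scale a fold change understates the change of low genes. In every line 9 of the 10 genes had a mean FPKM of at least 1 and were tested, CCND2 being the exception. In EBC-1, 4 of 9 were called lower and 0 higher, against 21.6% and 23.1% of all 12430 genes tested. In PC-9, 1 of 9 was called lower and 0 higher, against 1.41% and 0.678% of 12089 genes. In HCC827, 2 of 9 were called lower and 2 higher, against 20.7% and 17.2% of 11999 genes. In EBC-1 the nc and shSYK libraries did not overlap for 5 of the 9 members, as for 56.9% of all genes tested. The count was 3 of 9 in PC-9, beside 23.7%, and 7 of 9 in HCC827, beside 52.3%. With 3 libraries against 3, an exact permutation test of a single gene cannot give a p below 0.1. Bulk RNA cannot tell fewer cells in a given cell cycle phase from less RNA per cell.

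Cyclin D1 was the member that fell in both EGFR-mutant lines. In PC-9, CCND1 stood at 71.5, 64.3 and 67.3 FPKM in nc and at 45.9, 45.9 and 48.5 FPKM in shSYK. All shSYK libraries lay below all nc libraries, and the mean was 69.1% of nc. The log2 fold change was -0.52 ± 0.10 (SE) with a limma adjusted p of 0.0489. In HCC827 the nc libraries held 107, 113 and 95.9 FPKM and the shSYK libraries 81.5, 75.6 and 71.0 FPKM, again without overlap, at 72.1% of nc. Here the log2 fold change was -0.47 ± 0.08 with a limma adjusted p of 0.00420. EBC-1 showed no such fall, with 49.8, 45.2 and 53.5 FPKM in nc and 51.5, 54.9 and 50.3 FPKM in shSYK. Those groups overlapped, and the log2 fold change was 0.08 ± 0.08 (limma adjusted p = 0.446). With library sums made equal, the EBC-1 value became 0.21 and was called (limma adjusted p = 0.0344).

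The PC-9 call for CCND1 was close to the threshold. It was lost without nc replicate 3 or without any single shSYK replicate, with a pseudocount of 0.1, with no filter and under a block on replicate number, while the log2 fold change stayed between -0.56 and -0.48 and the limma adjusted p ran from 0.000457 to 0.263. Without nc replicate 1, the library that stood apart, it was -0.48 (limma adjusted p = 0.0256). CCND1 overlaps ORAOV1 on the opposite strand by 1399 bases, and whether the counting used strand is not given in the sources used here. ORAOV1 held at most 888 reads in a library, whereas CCND1 held at least 2377.

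Other D-type cyclins gave no call. CCND3 had a log2 fold change of 0.03 ± 0.14 in EBC-1 cells, 0.04 ± 0.19 in PC-9 cells and -0.23 ± 0.09 in HCC827 cells. Without PC-9 nc replicate 1 the PC-9 value was 0.22 (limma adjusted p = 0.378), and with each library left out in turn it ran from -0.14 to 0.22. In HCC827 its shSYK libraries, at 9.66, 8.87 and 9.15 FPKM, all lay below the nc libraries, at 11.1, 9.73 and 12.3 FPKM, with a limma adjusted p of 0.0680. Without HCC827 nc replicate 2 that p was 0.0221. CCND2 in EBC-1 had 28, 17 and 16 reads in nc and 12, 7 and 5 in shSYK. These groups did not overlap, and shSYK stood at 35.9% of nc in FPKM, with an exact two-sided permutation p of 0.1, the smallest possible. When CCND2 was tested with no filter on low FPKM, its limma adjusted p was 0.0712.

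CDKN1B moved in opposite directions in EBC-1 and HCC827. In EBC-1 it had 65.8, 61.4 and 58.8 FPKM in nc and 36.3, 39.2 and 37.7 FPKM in shSYK. No shSYK library came near the nc range, the mean stood at 60.9% of nc, and the log2 fold change was -0.70 ± 0.07 (limma adjusted p = 0.000406). In HCC827 the nc libraries had 23.3, 23.5 and 22.3 FPKM and the shSYK libraries 29.8, 30.04 and 29.3 FPKM. These groups did not overlap either, at 129% of nc and a log2 change of 0.35 ± 0.05 (limma adjusted p = 0.00176). PC-9 fell between, with 29.3, 36.3 and 34.6 FPKM in nc and 36.0, 39.5 and 37.5 FPKM in shSYK, groups that overlapped. Its log2 fold change of 0.17 ± 0.12 was not called (limma adjusted p = 0.543) and was 0.08 without nc replicate 1.

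CDKN1A was called in HCC827. Its nc libraries had 9.93, 7.98 and 10.2 FPKM and its shSYK libraries 6.33, 6.17 and 6.10 FPKM. The groups did not overlap, shSYK stood at 66.2% of nc, and the log2 fold change was -0.52 ± 0.09 (limma adjusted p = 0.00427). In PC-9 the order was the other way round, with 6.10, 5.90 and 5.69 FPKM in nc and 7.86, 6.78 and 8.04 FPKM in shSYK. All shSYK libraries were above all nc libraries, but the log2 fold change of 0.31 ± 0.10 was not called (limma adjusted p = 0.182, and 0.102 without nc replicate 1). With the variance estimated over all 18 libraries, that p was 0.0427. EBC-1 held 23.8, 24.6 and 23.1 FPKM in nc and 22.9, 19.7 and 25.2 FPKM in shSYK, with overlap. Its log2 fold change was -0.08 ± 0.09 (limma adjusted p = 0.510), and it was 0.04 with library sums made equal.

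CDKN1C had a negative log2 fold change in all 3 lines and was called in EBC-1. There it had 4.66, 4.78 and 5.34 FPKM in nc and 3.91, 4.30 and 3.27 FPKM in shSYK, without overlap, and a log2 change of -0.30 ± 0.10 (limma adjusted p = 0.0419). That call was lost without any single EBC-1 library other than shSYK replicate 2, with no filter, with library sums made equal, with all 18 libraries in 1 fit, with the replicate number as a block and with recovered reads. Over all alternatives its log2 fold change ran from -0.37 to -0.19 and its limma adjusted p from 0.0355 to 0.154. In PC-9 the log2 fold change was -0.35 ± 0.20 (limma adjusted p = 0.466) with overlapping groups, and -0.24 without nc replicate 1. HCC827 gave -0.37 ± 0.14 (limma adjusted p = 0.0775) with groups that did not overlap, at 1.28, 2.04 and 2.15 FPKM in nc and 1.01, 1.27 and 1.24 FPKM in shSYK. Without HCC827 nc replicate 1 that p was 0.0178. Between 24 and 64 reads lay on CDKN1C in the PC-9 and HCC827 libraries.

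Sums over the CIP/KIP family moved in the direction of CDKN1B in EBC-1 and HCC827. In EBC-1 the summed level was 87.2 to 94.2 FPKM in nc and 63.1 to 66.2 FPKM in shSYK, and the share of CDKN1A went from 25.3% to 27.1% in nc to 31.1% to 38.1% in shSYK. In HCC827 the sum was 33.5 to 34.6 FPKM in nc and 36.6 to 37.5 FPKM in shSYK, and the share of CDKN1A went from 23.8% to 29.3% to 16.5% to 17.1%. In PC-9 the sum was 38.1 to 43.8 FPKM in nc and 45.2 to 47.7 FPKM in shSYK, without overlap, although the CDKN1B groups overlapped there. These sums and shares were not tested.

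Among INK4 genes, CDKN2B rose in HCC827 and CDKN2A fell in EBC-1. CDKN2B, which encodes p15, a known target of TGF-β signalling, had 4.88, 4.57 and 4.53 FPKM in HCC827 nc and 11.0, 9.39 and 7.88 FPKM in shSYK. The shSYK libraries differed among themselves but all lay above the nc libraries, at 202% of nc, with a log2 change of 0.87 ± 0.11 (limma adjusted p = 0.00116). In EBC-1, CDKN2B had 2.56, 2.28 and 2.13 FPKM in nc and 2.08, 2.001 and 1.58 FPKM in shSYK, groups that did not overlap. That log2 fold change of -0.21 ± 0.11 was not called (limma adjusted p = 0.151). PC-9 gave 0.02 ± 0.10 (limma adjusted p = 0.961), with overlap, and 0.02 without nc replicate 1.

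CDKN2A in EBC-1 had 7.93, 5.63 and 8.54 FPKM in nc and 4.68, 4.19 and 4.09 FPKM in shSYK. All shSYK libraries were below all nc libraries, shSYK stood at 58.7% of nc, and the log2 fold change was -0.64 ± 0.14 (limma adjusted p = 0.00833). In the lines with high CDKN2A the groups overlapped. HCC827 had 211, 208 and 224 FPKM in nc and 242, 219 and 208 FPKM in shSYK, a log2 change of 0.05 ± 0.07 (limma adjusted p = 0.571). PC-9 had 104.7, 62.9 and 80.4 FPKM in nc and 74.2, 69.4 and 85.5 FPKM in shSYK, a log2 change of -0.09 ± 0.19 (limma adjusted p = 0.891) that turned to 0.10 without nc replicate 1, the library with the highest value. With each PC-9 library left out in turn, that log2 change ran from -0.27 to 0.10. CDKN2A and CDKN2B each overlap the antisense gene CDKN2B-AS1, which held at most 11 reads in any library. Transcripts of CDKN2A and CDKN2B share an exact run of up to 80 bases in GENCODE v44, so reads from it could be split between them.

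CDKN2D, which acts on CDK4 and CDK6 like the other INK4 proteins, was called lower in EBC-1. It had 8.64, 8.11 and 9.98 FPKM in nc and 7.34, 7.51 and 6.36 FPKM in shSYK, without overlap, and a log2 change of -0.30 ± 0.10 (limma adjusted p = 0.0389). This call was lost without any single EBC-1 library other than nc replicate 2, and under the same 5 other settings as that of CDKN1C, with a limma adjusted p between 0.0232 and 0.149 over all alternatives. PC-9 went the other way, with 10.5, 6.35 and 8.23 FPKM in nc and 11.2, 10.9 and 14.1 FPKM in shSYK. Those groups did not overlap, yet the log2 fold change of 0.50 ± 0.18 was not called (limma adjusted p = 0.233). Without nc replicate 1 it was 0.66 and called (limma adjusted p = 0.0414). Over all alternatives it ran from 0.34 to 0.66, with a limma adjusted p from 0.028 to 0.562. In HCC827, the CDKN2D log2 fold change was -0.23 ± 0.10 (limma adjusted p = 0.0965), with 57 to 102 reads per library and groups that did not overlap.

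CDKN2C was not called in any line. In EBC-1, where it led the family, nc libraries had 17.3, 13.0 and 17.5 FPKM and shSYK libraries 12.3, 13.4 and 8.40 FPKM, so that 1 shSYK library lay above the lowest nc library. The log2 fold change was -0.47 ± 0.18 (limma adjusted p = 0.0652), and it was called without nc replicate 2 or without shSYK replicate 2, with recovered reads, with all 18 libraries in 1 fit, and with a mean FPKM of at least 5. PC-9 and HCC827 gave -0.03 ± 0.14 and -0.08 ± 0.08, with overlap in both, and the PC-9 value was 0.063 without nc replicate 1. Summed INK4 levels in EBC-1 were 29.0 to 38.2 FPKM in nc and 20.4 to 27.1 FPKM in shSYK, against 223 to 239 and 226 to 262 FPKM in HCC827.

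**Figure D2:**
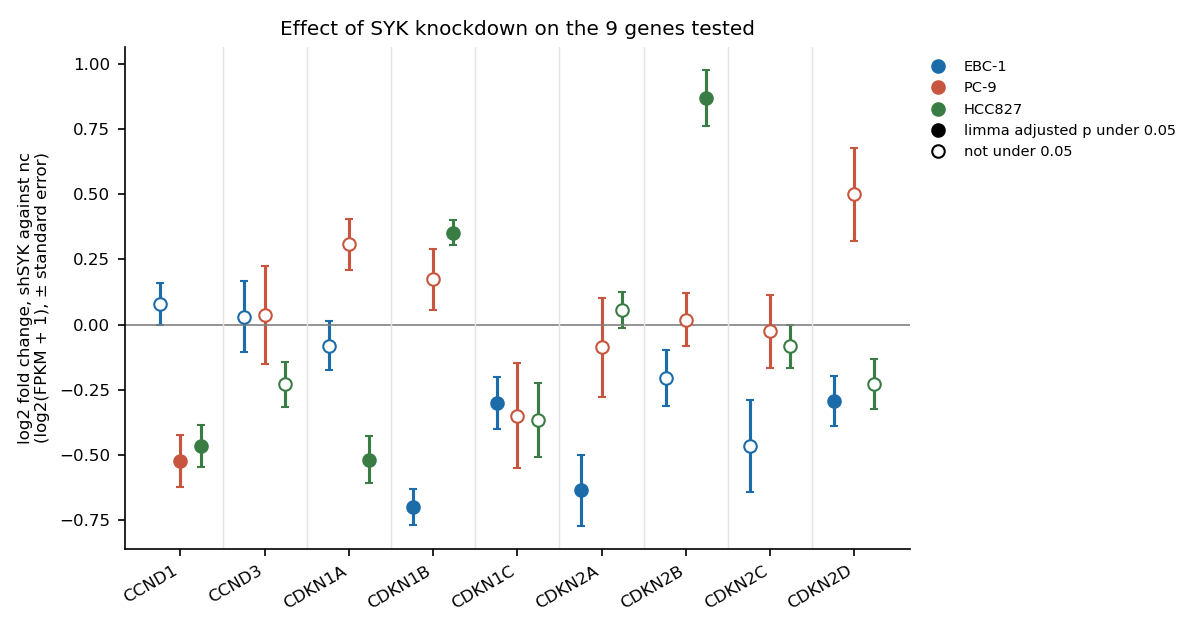
Log2 fold change of shSYK against nc on the log2(FPKM + 1) scale, with its standard error, for the 9 genes tested in EBC-1, PC-9 and HCC827; filled points have a limma adjusted p under 0.05. CDKN1B lies at -0.70 in EBC-1 and 0.35 in HCC827, CDKN2B at 0.87 in HCC827, and CCND1 at -0.52 in PC-9 and -0.47 in HCC827.

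Whether the response differed between lines was tested as the difference of the log2 fold changes in 1 limma fit of all 18 libraries. Between EBC-1 and HCC827, 5 of 9 genes differed, against 21.8% of all 12672 genes. Between EBC-1 and PC-9 it was 3 of 9, against 19.8%, and between PC-9 and HCC827 also 3 of 9, against 7.50%. These 3 comparisons share libraries with one another, and the fit has 1 variance per gene for all lines. The spread between PC-9 libraries therefore enters the p-values of the EBC-1 and HCC827 comparison. Differences with PC-9 are judged by the pooled spread, not by that of PC-9. For CDKN2A the standard error was 0.22 in all 3 pairs. Fits per line gave its log2 fold change a standard error of 0.07 for HCC827, 0.14 for EBC-1 and 0.19 for PC-9. CDKN1B responded more negatively in EBC-1 than in HCC827, by -1.05 ± 0.11 (limma adjusted p = 4.44e-06), and more negatively than in PC-9, by -0.87 ± 0.11 (limma adjusted p = 3.99e-05). For CCND1 the response in EBC-1 exceeded that in PC-9 by 0.60 ± 0.11 (limma adjusted p = 0.00175) and that in HCC827 by 0.55 ± 0.11 (limma adjusted p = 0.00295). Between the EGFR-mutant lines the CCND1 difference was -0.06 ± 0.11 (limma adjusted p = 0.850). CDKN2B in HCC827 stood out from both other lines, with EBC-1 lower by a difference of -1.08 ± 0.15 (limma adjusted p = 8.60e-05) and PC-9 by -0.85 ± 0.15 (limma adjusted p = 0.00167).

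Calls for CDKN1A and CDKN2D separated the EGFR-mutant lines, that for CDKN2D less stably. For CDKN1A the response in PC-9 exceeded that in HCC827 by 0.83 ± 0.13 (limma adjusted p = 0.000928), and the response in EBC-1 exceeded that in HCC827 by 0.44 ± 0.13 (limma adjusted p = 0.0281). For CDKN2D the response in PC-9 exceeded that in HCC827 by 0.73 ± 0.20 (limma adjusted p = 0.0344), and EBC-1 lay below PC-9 by -0.80 ± 0.20 (limma adjusted p = 0.0106). CDKN2A differed between EBC-1 and HCC827 by -0.69 ± 0.22 (limma adjusted p = 0.0333), and between EBC-1 and PC-9 the difference of -0.55 ± 0.22 missed the threshold (limma adjusted p = 0.0898). CCND3, CDKN1C and CDKN2C gave no called difference in any pair. Of 25 alternatives, 10 ended the CDKN1A call and 9 the CDKN2A call between EBC-1 and HCC827, and 11 ended the CDKN2D call between PC-9 and HCC827, the replicate block being among these for CDKN1A and CDKN2D. Without PC-9 nc replicate 1, 5 of 9 genes differed between EBC-1 and PC-9, CDKN1A and CDKN2A in addition to the 3, but the share of all genes rose with it, to 36.2%. Between PC-9 and HCC827 it was then 4 of 9, with CDKN1B added, beside 18.9% of all genes, and between EBC-1 and HCC827 5 of 9, beside 29.9%.

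**Figure D3:**
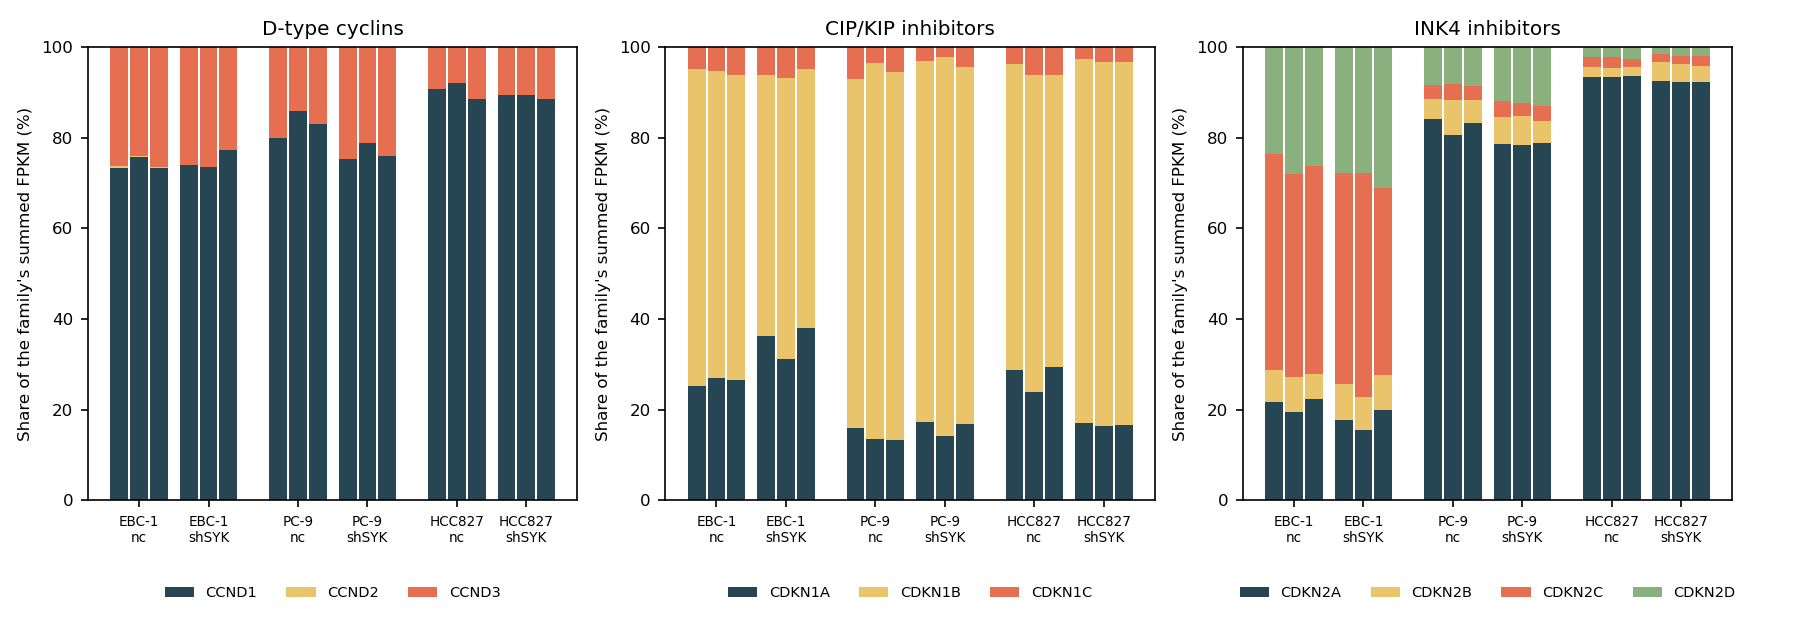
Share of each gene in the summed FPKM of its family (stacked to 100%), one bar per library, 3 nc and 3 shSYK libraries in each line. CDKN2A fills 93.3% to 93.7% of the INK4 bar in HCC827 nc and 19.4% to 22.4% in EBC-1 nc, and the CDKN1A share of the CIP/KIP bar is larger in shSYK than in nc in EBC-1 and smaller in HCC827.

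The partners and targets of these genes were described in 4 lists, also chosen with earlier results of these data known. The G1/S machinery list holds 16 genes, among them the kinases, cyclin E genes, retinoblastoma family and E2F factors. In EBC-1, 7 of 16 tested were called higher and 4 lower, beside 23.1% and 21.6% of all genes tested, with a median log2 fold change of 0.25 against 0.01 for all genes. RB1, the gate that cyclin D opens, was higher by 0.67 and its relative RBL1 by 0.62, CDK6 was higher by 0.57, and the activator E2F2 had a log2 fold change of -0.57. In HCC827, 3 of 16 were called higher and 3 lower, beside 17.2% and 20.7% of all genes, with a median of 0.00 (-0.01 for all genes). There CDK6 was higher by 0.67, TFDP1, the partner of E2F factors, by 0.30, and E2F2 and E2F1 were lower, at -0.87 and -0.39. In PC-9, 0 of 15 were called, beside 0.678% of all genes called higher and 1.41% called lower, with a median of 0.04. With so few calls over all PC-9 genes, 0 calls in a list of this size do not show an absence of change. Without PC-9 nc replicate 1 the median was 0.073 and 1 was called, E2F2, higher by 0.62 (limma adjusted p = 0.0308). Calls among all PC-9 genes then rose as well, from 253 to 621.

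The kinase that D-type cyclins activate was itself uneven across lines. CDK4 had 775 to 895 FPKM in HCC827 nc cells, against 58.1 to 66.4 in EBC-1 and 26.1 to 43.1 in PC-9. CDK6 was highest in EBC-1, with 13.7 to 18.4 FPKM in nc, against 5.62 to 6.89 in HCC827 and 1.27 to 3.29 in PC-9. CDK6 in shSYK cells had 22.6 to 23.7 FPKM in EBC-1 and 9.87 to 11.2 in HCC827, in both lines above every nc library. The CDK4 and CDK6 levels were chosen for description after their values were seen.

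Among the 4 lists, genes of S phase entry driven by E2F in HCC827 gave the highest share of calls in a single direction. Of 14 tested, 10 were called lower and 1 higher, with a median of -0.32, beside 20.7% of all genes called lower and 17.2% called higher. MCM2 and MCM5, subunits of the replicative helicase, had log2 fold changes of -0.48 and -0.40, and CDT1, which loads that helicase, -0.42. CCNA2, which encodes cyclin A2, was higher by 0.41. With the variance estimated over all 18 libraries, 6 of 14 were called lower, beside 1821 of all 11999 genes. In EBC-1, 3 of 14 were called lower and 4 higher, beside 21.6% and 23.1% of all genes. The median there was -0.10 and became 0.03 with library sums made equal and 0.07 after quantile normalization. The 7 calls in EBC-1 became 1 lower and 1 higher with the replicate number as a block, 2 and 2 without nc replicate 1 or nc replicate 3, and 1 lower and 2 higher without shSYK replicate 1. Calls among all EBC-1 genes went from 5562 to 4326, 3761, 4035 and 4350 in this order. CDT1 and MCM2 had -0.54 and -0.37 there, CCNA2 was higher by 0.49 and MCM4 by 0.27. In PC-9, 0 of 14 were called, beside 0.678% of all genes called higher and 1.41% called lower, and the median was -0.20, or -0.12 without nc replicate 1.

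The p53 targets beside CDKN1A split in both directions. In EBC-1, 5 of 14 tested were called higher and 5 lower, again beside 23.1% and 21.6% of all genes, with a median of 0.06. BBC3, an inducer of apoptosis, had a log2 fold change of -1.48, FDXR -0.94 and GADD45A, a growth arrest gene, -0.92, while FAS, the death receptor, was higher by 0.70. In HCC827, 4 of 16 were called higher and 5 lower, beside 17.2% and 20.7%, with a median of 0.01. FAS was higher by 0.86 and GADD45A by 0.80, CCNG1 by 0.59, and FDXR had -0.48. In PC-9, 1 of 16 was called, beside 0.678% of all genes called higher and 1.41% called lower. It was GADD45A, with 40.0 to 43.4 FPKM in nc and 113 to 131 FPKM in shSYK (log2 fold change 1.51, limma adjusted p = 0.00231). CCNG1 was also called higher there without nc replicate 1, by 0.51 (limma adjusted p = 0.0308), and without nc replicate 2, by 0.60 (limma adjusted p = 0.0347), and in the second case FDXR was called lower, at -0.67 (limma adjusted p = 0.0412). These fits called 621 and 503 of all PC-9 genes, against 253 with all libraries. CDKN1A thus fell in HCC827 while GADD45A rose there.

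Ubiquitin ligase parts that act on D-type cyclins or on the inhibitors gave 4 of 11 called higher and 1 lower in EBC-1, beside 23.1% and 21.6% of all genes, with a median of 0.09. CUL1 and SKP1, parts of the ligase that targets p27, were higher by 0.68 and 0.42 and SKP2, its p27 receptor, by 0.33, and FBXO31, which targets cyclin D1, had -0.71. CKS1B and RNF123 from the same list were not called there, at -0.12 and -0.29 (limma adjusted p = 0.22 and 0.064). In HCC827, 1 of 11 was called higher and 3 lower, beside 17.2% and 20.7%, with a median of 0.00. RNF123, part of another ligase for p27, and FBXO31 had -0.49 and -0.44 there, DDB1 had -0.22, and SKP1 was higher by 0.23. In PC-9, 0 of 11 were called, beside 0.678% of all genes called higher and 1.41% called lower. The median there was 0.06, or 0.085 without nc replicate 1, where 0 were called as well. Protein levels of the cyclins and inhibitors were not measured in these data.

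**Figure D4:**
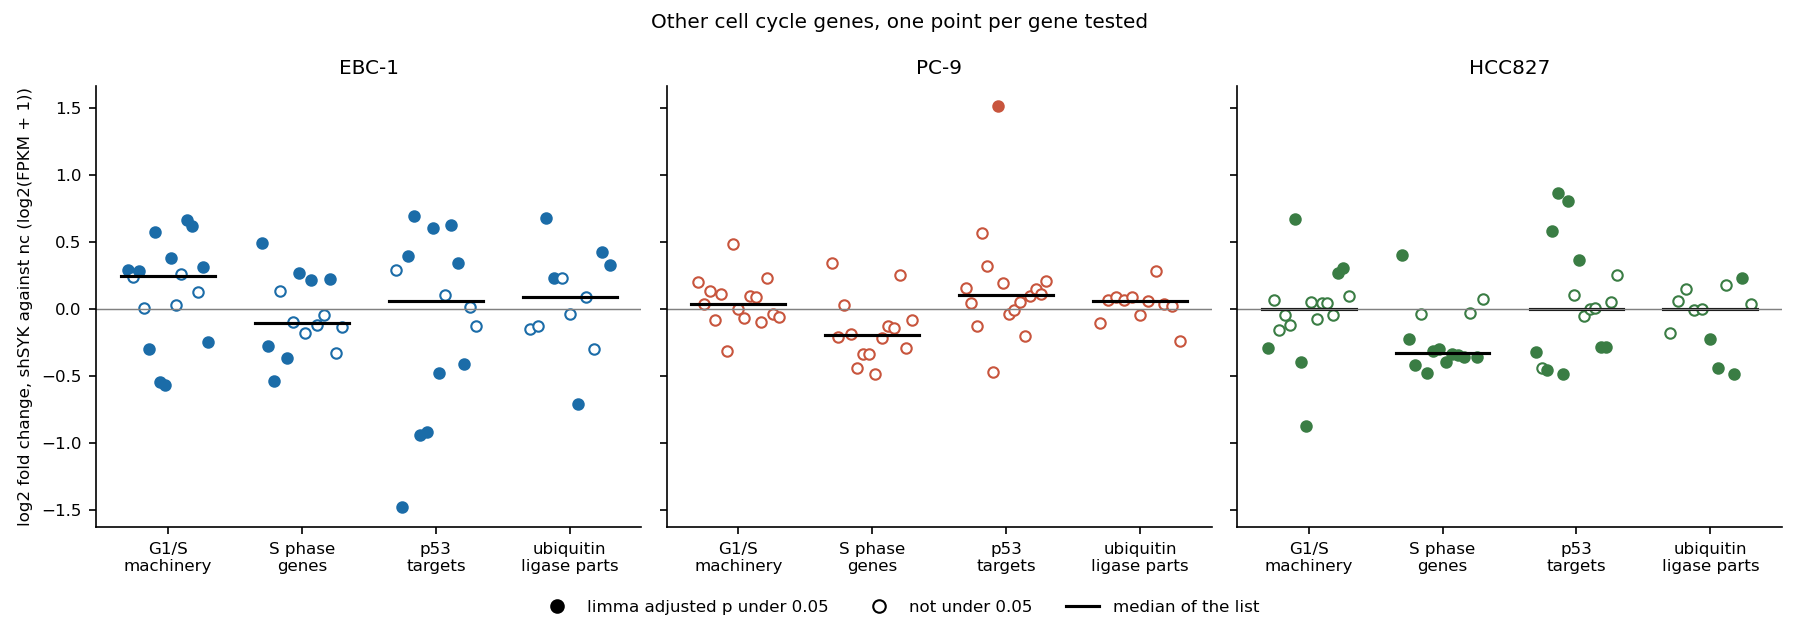
Log2 fold change of shSYK against nc for each tested gene of the 4 lists in EBC-1, PC-9 and HCC827, filled where the limma adjusted p is under 0.05, with the median of each list as a black line. Of the S phase genes, 10 of 14 lie below 0 and are filled in HCC827, and GADD45A is the single filled point in PC-9, at 1.51.

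Library sums of FPKM moved with the groups in EBC-1, from 267200 to 280500 in nc and from 247200 to 253500 in shSYK. With sums made equal, the median log2 fold change of all EBC-1 genes went from 0.01 to 0.12, and the split of calls went from 2876 higher and 2686 lower to 4019 higher and 1901 lower. With recovered reads in limma-voom the EBC-1 median was 0.10, with 3874 higher and 2271 lower. Under both settings CDKN1B and CDKN2A kept their calls as lower in EBC-1. The markers of immune, endothelial and fibroblast cells (PTPRC, CD68, PECAM1, VWF, COL1A1, DCN and LUM) summed to 2.27 to 2.74 FPKM in EBC-1 nc and 1.79 to 2.56 in shSYK, and to 1.03 to 1.32 FPKM in HCC827 nc and 1.42 to 2.13 in shSYK. Of these 7 markers, 3 had at most 3 reads in every EBC-1 library, as did 3 across PC-9 libraries and 4 across HCC827 libraries. DCN and LUM had 0 reads in all EBC-1 and PC-9 libraries, and PTPRC had at most 1 read per library in EBC-1 and HCC827 but 14 in PC-9 nc replicate 2. In PC-9 the sum was 18.5 to 22.8 FPKM in nc and 10.8 to 13.0 in shSYK, where 1 of 2 markers tested, PECAM1, was called lower. It was not called without PC-9 shSYK replicate 1. Its part in the PC-9 results was not tested.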

How the data were processed

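RNA-seq was analysed from 18 libraries, 3 nc and 3 shSYK in each of EBC-1, PC-9 and HCC827. Per the labels and the study's methods, RNA was extracted with TRIzol, libraries followed Illumina protocols, and reads were aligned to hg38. The submitters' processing notes list HISAT2 and CASAVA without versions or roles, and list GRCh37 and hg19 beside GRCh38. The counter, the annotation release and strandedness are not given in the sources used here. The authors deposited 1 table per line with FPKM (fragments scaled by gene length and a denominator per library) and a gene length column. No column of other samples was found (0). FPKM times the deposited gene length, divided by the smallest step found in each library, gave whole reads in all values above 0 within a tolerance of 0.001. Their sums gave depths, and 3 reads served as floor. Intervals from reads cover counting error only.

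Each line was tested with limma 3.58.1 in R 4.3.3, two-sided, on log2(FPKM + 1), with a variance trend and Benjamini-Hochberg adjustment over all genes tested, these being genes whose FPKM averaged 1 or more over the 6 libraries. Differences of responses came from 1 fit of the 18 libraries, with 1 variance per gene for all lines. On simulated counts with 2-fold changes, the fit per line recovered 88.5% of 192 changed genes in EBC-1 (12345 tested), 93.8% of 192 in PC-9 (12035 tested) and 88.7% of 195 in HCC827 (11943 tested). False calls numbered 16, 19 and 12 in this order. The simulated spread between replicates was the same in every line and was not taken from these libraries. These shares therefore do not give the recovery in the real data, least of all in PC-9, and changes smaller than 2-fold were not simulated. Alternative settings were no filter, a filter at 5 FPKM, a pseudocount of 0.1, equal library sums, quantile normalization, no variance trend, all 18 libraries in 1 fit, a replicate block, limma-voom on the recovered reads and each library left out in turn. Within groups, no pair of libraries matched within sampling noise. Python 3.11.15 with pandas 2.3.3, numpy 2.4.6, scipy 1.17.1 and matplotlib 3.10.9 did the rest.

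The 10 genes and all lists were chosen with earlier results of these data known. Named are every one of the 10 genes, SYK, and from each list at most the 4 called genes per line with the largest absolute log2 fold change, besides neighbours of a member at the floor, CDKN2B-AS1 and the marker lists. ORAOV1 was added for its overlap with CCND1. CKS1B and RNF123 in EBC-1 were named as list genes with a negative value there, after their values were seen. CDK4 and CDK6 levels across lines, the neighbours, markers and single libraries picked out by name, and list genes called only under an alternative were chosen after their values were seen. Promoters came from RefSeq in GRCh38.p14, the build of the tables, and transcripts from GENCODE v44.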

Additional observations from a re-analysis of the deposited data

Results flagged for a closer look

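The 11 results below are responses to shSYK that differed between 2 cell lines, each a difference of log2 fold changes that passed a limma adjusted p of 0.05 in the fit of all 18 libraries. The lines also differed in the depth of the SYK knockdown and in tumour type, whose part in these differences was not tested. Between EBC-1 and HCC827 (EBC-1 minus HCC827), the difference was 0.55 for CCND1, 0.44 for CDKN1A, -1.05 for CDKN1B, -0.69 for CDKN2A and -1.08 for CDKN2B. Between EBC-1 and PC-9 (EBC-1 minus PC-9), it was 0.60 for CCND1, -0.87 for CDKN1B and -0.80 for CDKN2D. Between PC-9 and HCC827 (PC-9 minus HCC827), it was 0.83 for CDKN1A, -0.85 for CDKN2B and 0.73 for CDKN2D. Every one of the 11 kept its direction under the 25 alternatives run for differences, or 24 for CDKN2B, which a mean FPKM of at least 5 left out.

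Of the 11, 8 kept their calls under those alternatives and 3 did not. The CDKN1A difference between EBC-1 and HCC827 lost its call with no filter, with the replicate number as a block and without nc replicates 1 or 3 of either line, EBC-1 shSYK replicates 1 or 3, or HCC827 shSYK replicates 2 or 3, with values from 0.36 to 0.54 and a limma adjusted p from 0.00788 to 0.0764. The CDKN2A difference between these lines lost it with no filter and without EBC-1 nc replicates 1 or 3, EBC-1 shSYK replicates 2 or 3, HCC827 nc replicates 1 or 2, or HCC827 shSYK replicates 1 or 2, with values from -0.85 to -0.59 and a limma adjusted p from 0.00246 to 0.0885. The CDKN2D difference between PC-9 and HCC827 lost it with no filter, with the replicate number as a block and without PC-9 nc replicates 2 or 3, PC-9 shSYK replicates 1 or 3, HCC827 nc replicates 1 or 3, or any HCC827 shSYK replicate, with values from 0.57 to 0.89 and a limma adjusted p from 0.00324 to 0.0968. Groups of 3 libraries are too small for the outlier test used for larger groups, so no value of a single library was tested that way.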

How the results depend on the processing

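Of the 27 log2 fold changes tested for the 10 genes, 9 were called, 6 of these kept their call under every alternative run for their line and all 9 kept their direction. The 3 that lost it were CDKN1C and CDKN2D in EBC-1 and CCND1 in PC-9. Members called lower in EBC-1 numbered 2 with no filter and 2 with equal library sums, which also called 1 higher, CCND1. Of all EBC-1 genes, 2251 of 30478 were called lower with no filter. Equal sums called 1901 of 12430 lower and 4019 higher. In PC-9, members called lower numbered 0 with a pseudocount of 0.1 and 0 with no filter, and members called higher numbered 2, CDKN1A and CDKN2D, with all 18 libraries in 1 fit. Of all PC-9 genes, 165 of 12089 were called lower with that pseudocount and 25 of 28526 with no filter. With all 18 libraries in 1 fit, all PC-9 genes called higher went from 82 to 660 of 12089. With each library left out in turn, members called lower ranged from 2 to 4 in EBC-1 (2 without nc replicates 1 or 3 or shSYK replicates 1 or 3) and from 0 to 1 in PC-9 (0 without nc replicate 3 or any shSYK replicate), and members called higher in PC-9 ranged from 0 to 1 (1, CDKN2D, without nc replicate 1). In those fits, all genes called lower ran from 1802 to 3050 in EBC-1 and from 2 to 344 in PC-9, and all genes called higher in PC-9 from 5 to 298. Members whose effect differed ranged from 3 to 5 both for EBC-1 minus PC-9 (5 without PC-9 nc replicate 1) and for EBC-1 minus HCC827 (3 without EBC-1 nc replicates 1 or 3, EBC-1 shSYK replicate 3, HCC827 nc replicate 1 or HCC827 shSYK replicate 2). Over the same fits the share of all genes called ran from 14.5% to 36.2% and from 16.9% to 29.9% for these pairs. All lines share 1 variance per gene in these fits, so a library left out also alters p-values of a pair without its line. Without PC-9 nc replicate 1, the EBC-1 minus HCC827 share went from 21.8% to 29.9%. The cause of the remaining changes in these counts was not tested.

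Signs turned in 7 of the 18 values that were not called. CDKN1A in EBC-1 was 0.044 with equal library sums and 0.0072 with recovered reads, and CDKN2B in PC-9 was -0.0074 with equal library sums. With libraries left out, EBC-1 values ran from -0.088 to 0.14 for CCND3 and from -0.16 to 0.011 for CDKN1A, PC-9 values from -0.14 to 0.22 for CCND3, from -0.27 to 0.10 for CDKN2A, from -0.047 to 0.081 for CDKN2B and from -0.11 to 0.085 for CDKN2C, and HCC827 values from -0.0048 to 0.10 for CDKN2A.

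Over all genes, a mean FPKM of at least 5 left 6847 genes and 3579 calls in EBC-1, against 5562. The PC-9 count of 253 became 47 with no filter, 491 with equal sums, 505 after quantile normalization, 480 with recovered reads and 1511 with all 18 libraries in 1 fit, and ran from 7 without shSYK replicate 1 to 621 without nc replicate 1 (24 without nc replicate 3, 16 and 20 without shSYK replicates 2 and 3, 503 without nc replicate 2).

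The labels number replicates 1 to 3 in every group, but same-numbered libraries did not deviate together, with correlations from -0.219 to 0.325 and 3 of 9 matching their own number best. With the number as a replicate block, members called lower were 2 in EBC-1, without CDKN1C and CDKN2D, and 0 in PC-9, and the CDKN1A difference between EBC-1 and HCC827 and the CDKN2D difference between PC-9 and HCC827 were not called. All genes called lower then numbered 2085 in EBC-1, against 2686, and 125 in PC-9, against 171. No other call of a member was lost under the block. Of the 4 lists, the S phase genes in EBC-1 were moved most, from 7 calls to 2. Depth limits CCND2, and CDKN1C in PC-9 and HCC827, most.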
